A study of Arabidopsis thaliana with 15 samples.

Results

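The heterochromatic knob on the short arm of chromosome 4 was described as all 300-bp windows, starting at base 1 of the chromosome and not overlapping, whose first base lay between 1600000 and 2300000. This gave 2333 of the 397157 windows of chromosomes 1 to 5, covering bases 1600201 to 2300100 of chromosome 4 in the TAIR10 assembly. The windows were chosen by position alone and by none of their methylation values. Methylation calls came from MethylC-seq libraries, made from DNA in which bisulfite turns unmethylated cytosines into bases that are read as thymine while methylated cytosines stay cytosines. The samples were 15 libraries of wild-type Arabidopsis thaliana Col-0, 3 replicates at each of 5 time points of germination. Seeds labelled as seed had been dried in darkness for 14 d (0 h). Material labelled as germinating seed had then spent 48 h at 4 °C in the dark (48 h S), or this followed by 6 h (6 h SL) or 24 h (24 h SL) in continuous light at 22 °C. Material labelled as seedling had spent 48 h in that light (48 h SL). Tissue and time therefore cannot be told apart at the ends of the series, and whole seeds or seedlings mix cell types, so a level that differs between time points may reflect the cells or their mixture, which cannot be told apart here.

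Knobs are blocks of compacted chromatin that lie in a chromosome arm, away from the centromere, and stain like the chromatin around it. In Arabidopsis such chromatin is built mostly of transposons and their remnants, and its cytosines are methylated in 3 contexts, CG, CHG and CHH, where H is A, C or T. MET1 copies CG methylation after replication, CMT3 maintains CHG methylation on histone H3 that carries lysine methylation, and the nucleosome remodeller DDM1 gives both access to compacted DNA. CHH methylation cannot be copied from the opposite strand and has to be set again after each replication. In the interior of long transposons CMT2 does this, with a preference for cytosines followed by AA or TA. At transposon edges and short elements the RNA-directed pathway, in which small RNAs guide the methyltransferase DRM2, acts with little preference among CHH trinucleotides.

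The knob held 259308 cytosines on both strands, 37502 in CG, 36076 in CHG and 185730 in CHH context. By the RefSeq annotation, pseudogenes contained 41.3% of them, protein-coding genes 15.2%, and 43.5% lay outside both. In the 700 kb to the left of the knob these shares were 4.07%, 69.5% and 26.4%, and in the 700 kb to the right 17.3%, 38.8% and 43.9%. Annotated genes lying wholly inside the knob numbered 54 protein-coding genes and 111 pseudogenes. The cytosines followed by AA or TA made up 28.0% of CHH cytosines in the knob and 28.1% in the rest of the genome, so the knob did not differ in composition in this respect.

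The 5 windows in which the CHH changes can best be read are printed here from the reference sequence of chromosome 4 (RefSeq, TAIR10.1), 5′ to 3′ on the plus strand. Capitals mark CAA and CTA, and TTG and TAG, which are CAA and CTA on the minus strand; overlapping matches run together. Every knob window and 99.9992% of all windows held at least 1 of these, so their presence sets no window apart and only their share and their level can. The first 3 windows had the largest falls in CHH level between 0 h and 48 h SL among the windows that passed the test, the second and the fourth had the highest CHH level over all libraries, and the fifth had the smallest change among windows whose CHH level over all 15 libraries was above 20%, a limit it passed through the time points between 0 h and 48 h SL.
chr4:1958701-1959000, between AT4G04070 and AT4G04077: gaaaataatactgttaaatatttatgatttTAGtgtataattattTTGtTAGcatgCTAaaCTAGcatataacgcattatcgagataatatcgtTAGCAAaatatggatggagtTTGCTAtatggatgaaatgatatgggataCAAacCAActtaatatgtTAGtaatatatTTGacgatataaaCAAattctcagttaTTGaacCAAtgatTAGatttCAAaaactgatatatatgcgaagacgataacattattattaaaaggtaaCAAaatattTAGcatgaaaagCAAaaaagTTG
chr4:1930801-1931100, between AT4G04010 and AT4G04020: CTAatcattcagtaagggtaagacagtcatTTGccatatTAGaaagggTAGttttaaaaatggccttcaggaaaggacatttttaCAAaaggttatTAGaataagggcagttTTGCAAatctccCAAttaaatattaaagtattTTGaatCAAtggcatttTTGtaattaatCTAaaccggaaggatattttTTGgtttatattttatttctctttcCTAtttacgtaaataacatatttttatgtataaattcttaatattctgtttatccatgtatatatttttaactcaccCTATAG
chr4:2235601-2235900, between AT4G04490 and AT4G04495: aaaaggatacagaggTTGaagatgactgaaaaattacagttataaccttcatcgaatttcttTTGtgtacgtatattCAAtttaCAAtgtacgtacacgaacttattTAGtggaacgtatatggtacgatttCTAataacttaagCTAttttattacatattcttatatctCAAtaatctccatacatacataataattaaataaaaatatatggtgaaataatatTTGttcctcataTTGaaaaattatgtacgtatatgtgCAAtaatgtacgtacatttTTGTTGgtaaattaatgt
chr4:2053501-2053800, between AT4G04255 and AT4G04260: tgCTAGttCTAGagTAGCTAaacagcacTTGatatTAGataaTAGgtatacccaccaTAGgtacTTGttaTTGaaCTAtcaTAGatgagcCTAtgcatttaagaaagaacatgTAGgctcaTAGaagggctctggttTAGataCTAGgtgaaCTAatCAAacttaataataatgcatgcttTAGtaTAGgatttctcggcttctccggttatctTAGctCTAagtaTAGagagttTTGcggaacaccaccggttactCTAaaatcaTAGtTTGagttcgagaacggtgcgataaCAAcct
chr4:1689301-1689600, in the pseudogene AT4G03790: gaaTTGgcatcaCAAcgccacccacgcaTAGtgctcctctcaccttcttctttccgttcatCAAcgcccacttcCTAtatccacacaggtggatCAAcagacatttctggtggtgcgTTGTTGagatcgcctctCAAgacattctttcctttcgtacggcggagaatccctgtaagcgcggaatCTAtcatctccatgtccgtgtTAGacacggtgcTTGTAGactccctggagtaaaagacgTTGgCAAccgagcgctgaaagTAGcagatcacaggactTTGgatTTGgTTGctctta

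The first 4 of these windows lay outside annotated genes. Their content of G and C was 25.3%, 26.7%, 25.3% and 37.7%, against 49.7% in the fifth. In the first, the level of CAA and CTA cytosines was 30.3% at 48 h SL against 69.2% at 0 h, and that of the other CHH cytosines 25.7% against 69.2%. There the trinucleotide made no difference in the dry seed, and both classes ended far lower in the seedling. In the fifth window, CAA and CTA cytosines were at 44.1% at 48 h SL and 45.5% at 0 h, while the other CHH cytosines were at 11.9% and 11.7%. That window carried the steep preference for CAA and CTA in both stages. CG methylation in the first window was 90.6% at 48 h SL and 88.1% at 0 h, so the loss there was not shared by CG.

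The knob took 0.534% to 0.664% of each library's calls, with 2.00 to 9.32 calls per cytosine. The shallowest library was 24 h SL replicate 1 and the library with the largest share of its calls in the knob was 48 h SL replicate 1. No library had a call at 4.59% of the knob's cytosines, against 0.680% in the left flank, 5.12% in the right flank and 9.86% in gene-poor DNA elsewhere. The widest 95% Wilson interval of a knob level was 0.632 points for CG, 0.731 for CHG and 0.242 for CHH; it covers counting error only. Unconverted or miscalled cytosines, estimated from CHH calls in windows almost free of CG and CHG methylation, made up 0.339% to 0.749% of calls at 48 h SL and 0.214% to 0.305% at 0 h. This estimate moved with the seedling samples in the direction opposite to the falls described below.

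CHH methylation of the knob fell in the seedling. Its level, the share of all calls that were methylated, was 19.3%, 19.1% and 19.6% in the 0 h libraries and 18.5%, 19.2% and 19.2% at 48 h S. The 6 h SL libraries had 20.3%, 18.9% and 19.9%, the 24 h SL libraries 17.4%, 16.4% and 17.6%, and the 48 h SL libraries 14.3%, 12.5% and 11.8%. The 24 h SL libraries lay below all earlier ones and the 48 h SL libraries below all of these. The mean was 12.9% ± 1.28 at 48 h SL and 18.8% ± 1.13 in the other 12 libraries (SD), a fall of 5.90 points (two-sided exact permutation test of 3 against 12 libraries, p = 0.0022, the smallest it can give, adjusted p = 0.0066 over the 3 contexts). Levels also differed over the 5 time points (permutation F test, adjusted p = 0.00015). At 48 h SL the knob kept 66.6% of its 0 h level, or 64.6% once each library's background was subtracted. Compared with 0 h, the mean was lower by 6.44 points at 48 h SL and by 2.18 points at 24 h SL. At 48 h S it was lower by 0.37 points and at 6 h SL higher by 0.38 points, both within the overlap of the libraries. In these tests of 3 libraries against 3, the exact permutation p cannot go below 0.1. By this exact permutation test the differences at 24 h SL (p = 0.1, adjusted p = 0.1) and 48 h SL (p = 0.1, adjusted p = 0.3) are therefore not calls.

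CG and CHG methylation of the knob moved by much less. CG levels were 77.8%, 78.0% and 78.9% at 0 h, 77.2%, 77.7% and 77.2% at 48 h S and 79.4%, 77.6% and 78.3% at 6 h SL. The 24 h SL libraries had 75.3%, 75.4% and 76.7%, and the 48 h SL libraries 78.6%, 74.4% and 73.6%. The last group was split: replicate 1 lay within the range of the 0 h libraries and the other libraries lay below every earlier library. CHG levels were 47.1%, 47.3% and 47.9% at 0 h, 46.7%, 47.3% and 46.9% at 48 h S and 48.9%, 46.7% and 48.0% at 6 h SL. The 24 h SL libraries had 44.3%, 43.7% and 45.1%, and the 48 h SL libraries 47.3%, 43.4% and 42.8%, with the same split. The seedling mean was lower than that of the other 12 libraries by 1.91 points for CG and by 2.16 points for CHG, and neither passed (adjusted p = 0.073 for each by the exact permutation test). Over the time course the adjusted p of the permutation F test was 0.068 in CG and 0.044 in CHG, and the CHG call was lost when any of 13 of the 15 libraries was left out singly.

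These outcomes depended on single libraries. Both contexts passed when 24 h SL replicate 1, 24 h SL replicate 2 or 48 h SL replicate 1 was left out, and the values moved most without the last. Without 48 h SL replicate 1 the seedling mean was lower by 3.43 points in CG (adjusted p = 0.011) and by 3.57 points in CHG (adjusted p = 0.011, both by the exact permutation test). When every tested window counted equally, so that the unequal coverage of the knob mattered less, the levels were 72.9% ± 0.917 at 48 h SL and 75.6% ± 0.288 at 0 h in CG (SD, n = 3 each). In CHG they were 41.6% ± 1.22 at 48 h SL and 44.5% ± 0.0970 at 0 h. On that scale, and also without cytosines under 4 calls or with the background subtracted, the seedling levels passed the test. With equal windows the fall relative to the other libraries was 2.43 points for CG (adjusted p = 0.0033) and 2.49 points for CHG (adjusted p = 0.0088, both by the exact permutation test). This library also had the largest share of its calls in the knob, 0.664% against 0.569% and 0.554% in the other seedling libraries; the part of this in the split was not tested.

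**Figure D1:**
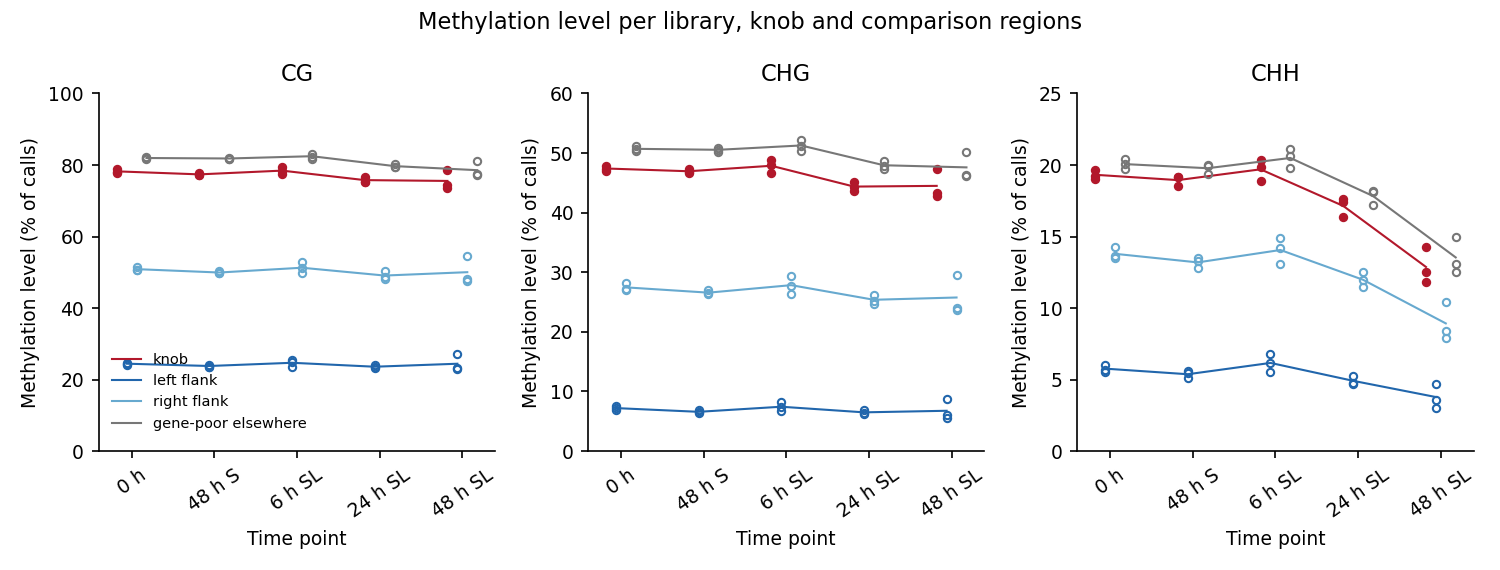
Methylation level (percent of calls, vertical axes) of each library by time point, in the knob (filled points), both flanks and gene-poor bins elsewhere (open points), with a line through the means of 3 libraries. In CHH the knob libraries at 48 h SL sit between 11.8% and 14.3%, below all others, while in CG and CHG replicate 1 of 48 h SL stands above the other seedling libraries.

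The edges of the knob were compared with 700 kb on either side. In CG the knob was at 75.5% ± 2.66 at 48 h SL, the left flank at 24.4% ± 2.34 and the right flank at 50.02% ± 3.92; at 0 h these levels were 78.2% ± 0.574, 24.4% ± 0.330 and 50.9% ± 0.479 (SD, n = 3). The CHH level at 0 h was 19.3% ± 0.296 in the knob, 5.76% ± 0.257 in the left flank and 13.8% ± 0.446 in the right flank. The left edge was a step. In 10-kb bins the largest rise within 100 kb was between the bins starting at 1580001 and 1590001. There the 0 h level was 75.0% against 31.8% in CG, 53.3% against 4.04% in CHG and 33.6% against 2.88% in CHH. The bin behind this step lay just outside the stated limits of the knob. Directly inside, the bin starting at 1600001, with 82.4% of its bases in protein-coding genes, was lower again at 36.1% in CG. The bin starting at 1620001, with no protein-coding base, was at 90.9%.

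The right edge was ragged. The 100-kb bin starting at 2200001, the last of the knob, was at 62.5% in CG at 0 h, and the bins after it at 51.9% and 35.1%. The bin starting at 2300001 kept a CHH level of 17.04% at 0 h, close to the 17.8% of the last knob bin, so high CHH methylation ran on beyond the limit. In 10-kb bins the largest drops were at 2320001 in CG, where the level was 19.6% against 63.6% in the bin before, and at 2370001 in CHG and CHH, where the CHH level was 3.46% against 23.6%. From 2800001 on, towards the centromere, the right flank returned to knob-like levels of 82.0% in CG and 23.9% in CHH. Within the knob itself the 0 h CG level of the 70 bins of 10 kb ranged from 25.2% to 96.0% with a median of 89.5%, and the CHH level from 4.18% to 38.5% with a median of 20.01%. The position of each step was the same at 48 h SL as at 0 h, in all 3 contexts and at both edges.

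**Figure D2:**
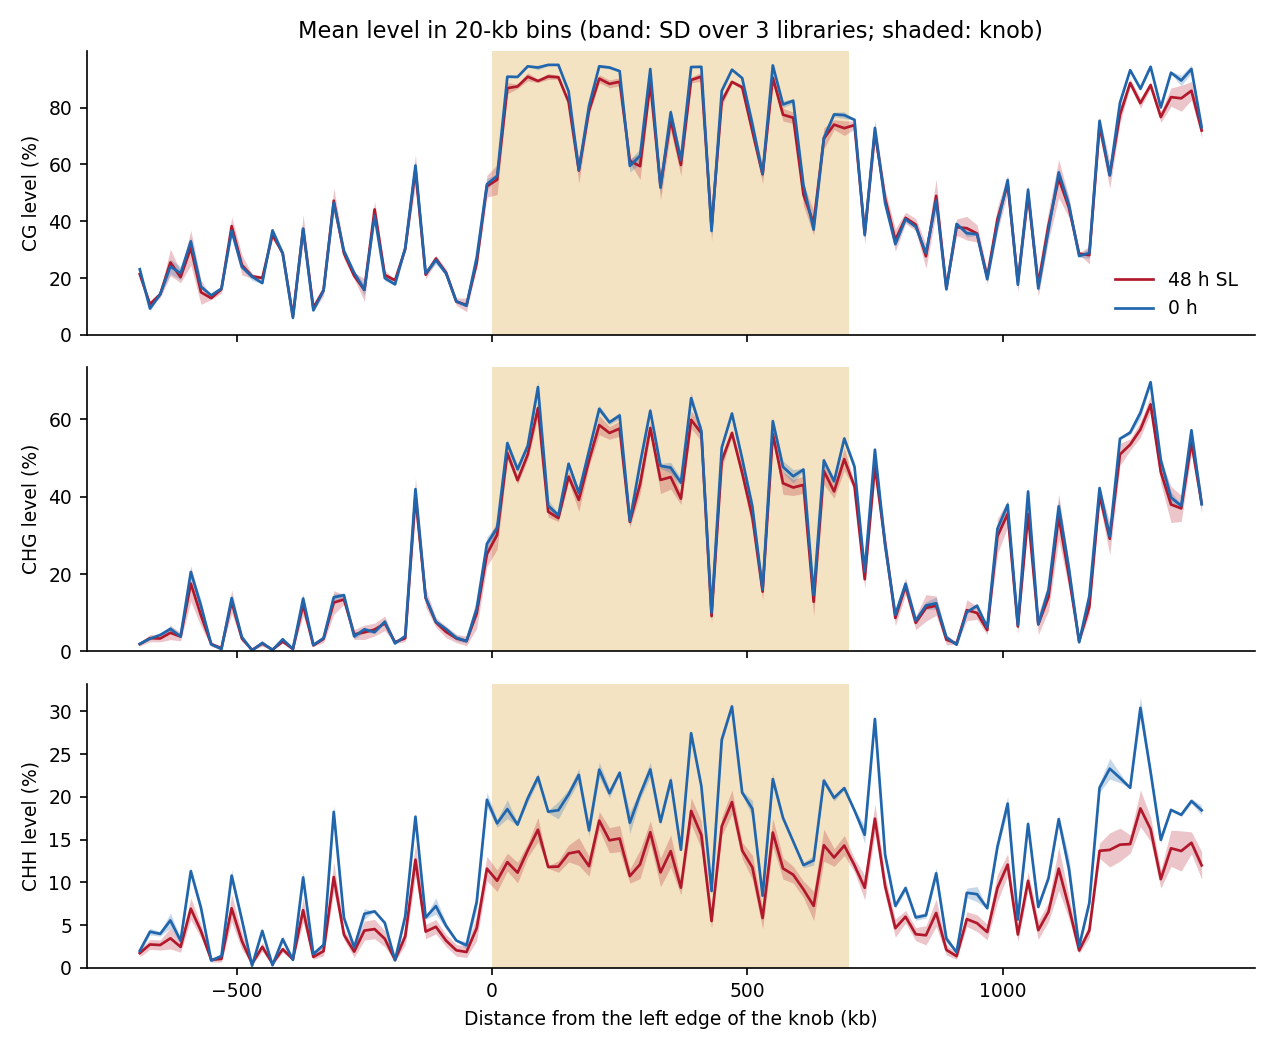
Mean level in 20-kb bins (vertical axes, percent of calls) against the distance from the left edge of the knob (kb), for 48 h SL and 0 h, with bands of 1 SD over 3 libraries and the knob shaded. The CG and CHG lines stay close to each other, whereas the CHH line of 48 h SL lies below that of 0 h across the knob and in the methylated parts of both flanks.

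All 70 bins of 10 kb in the knob had a lower CHH level at 48 h SL than at 0 h, and in 69 of them no library of 48 h SL reached any library of 0 h. The bins kept a share of their 0 h level that ranged from 55.1% to 83.4% with a median of 66.8%. In CG, 61 of the 70 bins were lower and 43 of these did not overlap. In CHG, 66 were lower and 32 of these did not overlap. Of 70 bins in each flank, 68 on the right and 50 on the left were lower in CHH, without overlap in 60 and 32. In CG, 41 bins on the right and 38 on the left were lower, without overlap in 15 and 4. In CHG these counts were 56 and 38, without overlap in 14 and 7. Higher without overlap were 2 CHH bins on the right and 12 on the left, 3 and 4 in CG, and 0 and 4 in CHG. Within the knob 1 CG bin was higher without overlap, and no CHG or CHH bin. Shares over the 10-kb bins of the whole genome were not computed. The 7 knob bins of 100 kb were alike: each kept between 65.2% and 68.6% of its CHH level, whatever its content of genes. The 100-kb bins of the flanks kept 62.2% to 71.5% on the left and 62.2% to 70.2% on the right.

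The share of CHH methylation that the knob lost was compared with that of other DNA. At 48 h SL it kept 66.6% of its 0 h CHH level, the left flank 65.5%, the right flank 64.7% and the gene-poor bins elsewhere 67.5%. With the background of each library subtracted these shares were 64.6%, 58.5%, 61.9% and 65.6%, and without 48 h SL replicate 1 they were 63.0%, 57.3%, 59.2% and 63.9%, so the flanks then stood further below the knob. The gene-poor set held 159 of 1193 bins of 100 kb, those with under 20% of their bases in protein-coding genes. The knob, both flanks and the bin next to the right flank were left out of it. The log2 ratio of the knob's CHH level to that of the gene-poor bins was -0.07 ± 0.01 at 48 h SL and -0.06 ± 0.01 in the other 12 libraries (SD), a shift of -0.02 that did not pass (exact permutation test, p = 0.029, adjusted p = 0.13 over 9 ratios). The corresponding ratios to the left flank, 1.79 ± 0.18 at 48 h SL and 1.76 ± 0.08 in the others, and to the right flank, 0.53 ± 0.07 and 0.50 ± 0.03, did not pass either (exact permutation test, adjusted p = 0.88 and 0.45), nor did any of the 3 with the background subtracted (adjusted p of 0.059 to 0.19, same test). A p that misses the threshold does not show equal loss. The shift against gene-poor bins did pass when every window counted equally (-0.02, adjusted p = 0.020) and when cytosines under 4 calls in any library were left out (-0.05, adjusted p = 0.033, same exact permutation test), so the knob then lost slightly more.

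Counted in points, the knob came closer to its flanks. The knob exceeded the left flank in CHH by 9.10 points at 48 h SL and by 13.2 points in the other libraries, and the right flank by 3.95 and 5.52 points (exact permutation test, p = 0.0022 and adjusted p = 0.0066 for each). In CG the knob exceeded the left flank by 51.1 points at 48 h SL and by 53.3 points in the others (adjusted p = 0.0066 by the same exact test). At an equal share lost, the region with the higher level loses more points, so these differences alone do not show unequal loss. The log2 ratios to the left flank did not pass in CHH or CG (exact permutation test, adjusted p = 0.88 and 0.27). The CHH ratio to the right flank did not pass either (adjusted p = 0.45, same test). The knob's CG level stayed 3.01 points below that of the gene-poor bins at 48 h SL, against 4.03 points in the others. That gap was smaller by 1.02 points (exact permutation test, adjusted p = 0.0079). The log2 ratio of these CG levels was higher by 0.017 and did not pass (exact permutation test, adjusted p = 0.099). With every window counting equally it did pass (0.012, adjusted p = 0.0066, same test).

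All 9 CHH trinucleotides fell in the seedling. CTA was the highest, at 25.7%, 23.5% and 22.6% in the 48 h SL libraries, against 33.9%, 34.02% and 34.7% at 0 h, and CAA followed at 24.9%, 23.05% and 21.9% against 32.1%, 31.9% and 32.7%. The lowest were CCT, at 4.64% ± 0.707 at 48 h SL and 8.23% ± 0.130 at 0 h, and CCC, at 4.48% ± 0.602 and 8.36% ± 0.285 (SD, n = 3). In each of the 9 the 3 seedling libraries lay below all other 12 (exact permutation test, p = 0.0022, adjusted p = 0.0039 over 16 trinucleotides). The fall relative to the other libraries was 9.41 points in CTA and 3.37 points in CCT. Relative to the 0 h level, CAA and CTA lost the least: CAA kept 72.2% and CTA 70.02% of the 0 h level, CTC 63.4%, CCA 59.2%, CCT 56.4% and CCC 53.6%.

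The log2 ratio of CAA and CTA to the other CHH trinucleotides tests this directly. Pooled, CAA and CTA were at 23.5% ± 1.56 at 48 h SL and 32.9% ± 0.403 at 0 h, and the other 7 at 8.003% ± 0.865 and 13.1% ± 0.205 (SD, n = 3). The log2 ratio was 1.56 ± 0.06 at 48 h SL and 1.34 ± 0.03 in the other 12 libraries, higher by 0.22 (exact permutation test, adjusted p = 0.0029 over 4 regions). The same ratio rose by 0.20 in the gene-poor bins and by 0.18 in the right flank (adjusted p = 0.0029 for each) and by 0.12 in the left flank (adjusted p = 0.020), where the call was lost without 48 h SL replicate 2 or 3. Whether the rise differs between regions was not tested. The CHH methylation that remained in the seedling knob was thus weighted more strongly to CAA and CTA.

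Among the CHG trinucleotides, CTG and CAG fell and CCG did not pass. CTG was at 50.3%, 46.8% and 46.1% at 48 h SL and at 51.7%, 51.9% and 52.2% at 0 h, lower by 3.22 points than in the other 12 libraries (exact permutation test, adjusted p = 0.025). CAG was lower by 2.55 points (adjusted p = 0.0498). CCG, the CHG trinucleotide with an inner CG site, was at 35.9%, 31.7% and 31.2% at 48 h SL and at 31.9%, 32.2% and 33.1% at 0 h, a mean that was 0.907 points above the other 12 libraries and did not pass (adjusted p = 0.34). That sign rested on 48 h SL replicate 1, without which CCG was lower by 0.556 points. Of the CG trinucleotides, which start at the C of the CG site, CGC was lower by 2.63 points (adjusted p = 0.035). CGA, CGG and CGT were lower by 1.75, 1.78 and 1.80 points without passing (adjusted p = 0.103 each). The calls of CTG, CAG and CGC were lost without 48 h SL replicate 2 or replicate 3, at adjusted p of 0.088 to 0.28. The CAG and CGC calls also failed without several other libraries.

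By annotation, pseudogenes were the most heavily methylated part of the knob in CG and CHG, and the sequence outside pseudogenes and protein-coding genes, called outside both here, the highest in CHH at 0 h. Genes of other types held 6.42% of the cytosines outside both. CHH methylation outside both was 13.9% ± 1.01 at 48 h SL and 22.2% ± 0.260 at 0 h, in pseudogenes 15.05% ± 1.44 and 20.8% ± 0.276, and in protein-coding genes 4.04% ± 0.855 and 5.79% ± 0.206 (SD, n = 3). All 3 classes fell relative to the other 12 libraries, by 7.67, 5.33 and 1.63 points (exact permutation test, p = 0.0022, adjusted p = 0.0049 over 9). Of the 0 h level, 62.6% was left outside both, 72.4% in pseudogenes and 69.8% in protein-coding genes. In the dry seed the sequence outside both thus stood above the pseudogenes, and in every seedling library it stood below them. The means crossed likewise in gene-poor bins elsewhere. There, outside both was at 14.0% at 48 h SL and 21.8% at 0 h, and pseudogenes at 14.5% and 19.9%. In the left flank outside both was the lower at both times, at 6.92% and 11.7% against 17.1% and 24.4% in pseudogenes.

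**Figure D3:**
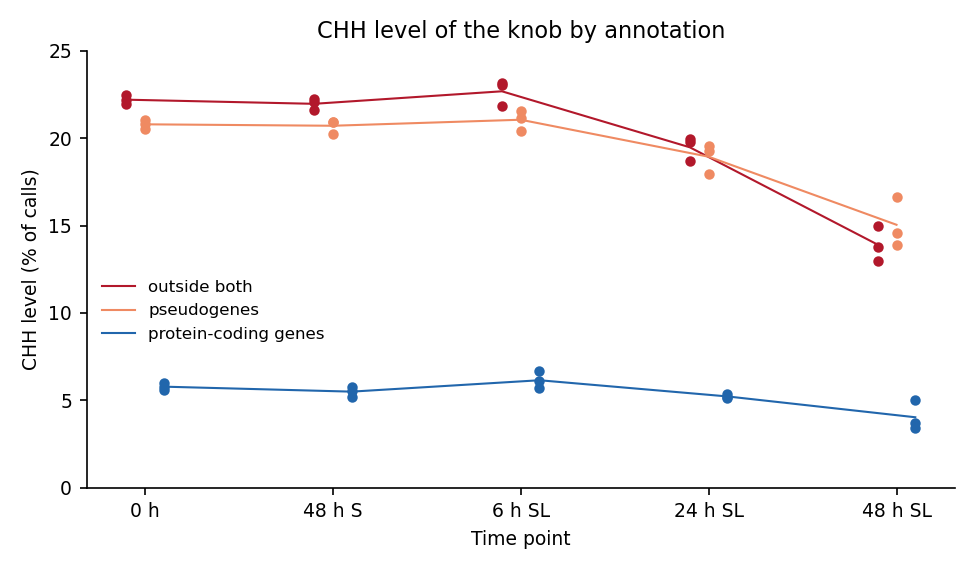
CHH level of the knob (percent of calls, vertical axis) in each library by time point, for cytosines outside both kinds of gene, in pseudogenes and in protein-coding genes, with lines through the means of 3 libraries. The line for sequence outside both starts above that for pseudogenes, at 22.2%, and ends below it, at 13.9%.

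CG methylation of the pseudogenes was 88.6% ± 1.42 at 48 h SL and 93.0% ± 0.283 at 0 h. In gene-poor bins elsewhere, pseudogenes were at 87.3% at 48 h SL and 91.8% at 0 h in CG. Within the knob, pseudogenes were the class in which the CG fall was clear, by 3.94 points relative to the other 12 libraries. All 3 seedling libraries lay below those (exact permutation test, adjusted p = 0.0049). Outside both CG fell by 1.94 points (adjusted p = 0.031), and in protein-coding genes it was 38.4% ± 3.68 at 48 h SL and 37.8% ± 0.514 at 0 h, with no call (exact permutation test, adjusted p = 0.45). CHG fell by 3.00 points in pseudogenes and by 2.76 points outside both (adjusted p = 0.026 and 0.024). These CHG calls and the CG call outside both were lost without 48 h SL replicate 2 or replicate 3, at adjusted p of 0.085 to 0.17, and that CG call also without any of 4 other libraries singly.

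Window by window, 2225 of the 2333 knob windows had at least 20 calls in every library and at least 3 cytosines covered in each, and could be tested in CHH. A quasi-binomial model with limma's moderated dispersion, adjusted over all 384796 tested windows of the genome, called 86 knob windows lower at 48 h SL than at 0 h by 20 points or more, and none higher. That is 3.87% of the tested knob windows, against 1.96% of all tested windows and 2.89% of those in gene-poor bins. The test over all 5 time points with the same minimum called 86 knob windows as well, against 1.95% of all windows. All 86 of the first test had every 48 h SL library below every 0 h library. Their choice by a fall between these groups favours this. Such separation downwards was seen in 1084 of the 2225 windows, or 48.7%, against 14.9% of all windows and 53.3% of gene-poor windows. The called windows fell by 20.1 to 41.2 points with a median of 24.4, and their median CHH level was 27.6% at 48 h SL and 53.2% at 0 h. At 24 h SL no knob window was called, against 0.0156% of all windows, while 325 were lower at an unadjusted p under 0.05, which is 14.6% against 5.63% of all windows. The called windows lay below 0 h in 84 of 86 cases at 24 h SL, by a median of 7.95 points. At 48 h S and 6 h SL their medians were 1.63 and 0.30 points below 0 h. Because these windows were chosen by their fall from the same 0 h libraries, the choice favours lower values at every other time point. The count and the medians are therefore a description only.

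The windows with the largest falls can be followed through all libraries. The window at 1958701 was at 29.6%, 22.3% and 31.2% at 48 h SL, against 68.7%, 69.04% and 69.95% at 0 h, and at 49.5%, 44.8% and 54.7% at 24 h SL. The window at 1930801, the most methylated of all, was at 41.9%, 42.6% and 39.5% at 48 h SL, against 86.04%, 78.3% and 76.3% at 0 h. The window at 2235601 was at 27.9%, 19.8% and 32.3% at 48 h SL, against 67.5%, 58.1% and 63.1% at 0 h. In each of them no library of 48 h SL reached any of 0 h. The windows were chosen as the largest called falls, which favours such a distance. By contrast, the window at 1689301 was at 18.8%, 15.4% and 19.4% at 48 h SL and at 17.2%, 17.8% and 18.6% at 0 h, with overlapping libraries. Of the 10 largest falls, 8 lay outside annotated genes. Another was in the pseudogene AT4G04130, where the window at 1981501 was at 38.6% at 48 h SL and 74.4% at 0 h. The other was at 2117401 in AT4G04330 (RbcX1), which encodes an assembly chaperone of Rubisco, the CO2-fixing enzyme; it was at 31.7% at 48 h SL and 64.9% at 0 h.

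A fall of 20 points can only be called where the level is high, and the lowest 0 h level of a called window was 33.7%. Of the 86, 71 overlapped neither a protein-coding gene nor a pseudogene, which is 82.6% against 41.4% of the tested knob windows. A further 10 overlapped only pseudogenes and 5 overlapped protein-coding genes. With no minimum difference 889 windows were called, against 15.6% of all windows, and of the 878 lower ones 475, or 54.1%, overlapped neither. The 86 windows called at 20 points were most frequent in the middle of the knob. There were 28 of 331 tested windows in the 100 kb from 2000001 and 20 of 317 in the 100 kb before it, against 5 of 316 in the first 100 kb. Grouped by their CHH level at 48 h S, which is part of neither group compared, windows at 40% or above kept 55.0% of their 0 h level, those from 30% to 40% kept 62.6%, those from 20% to 30% kept 70.2% and those from 10% to 20% kept 73.4%. Of the 112 windows at 40% or above, 76 were called, and all 112 were lower. The 338 windows under 1% at 48 h S had a median difference of 0.214 points.

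The same grouping split the trinucleotides, a description made after the values were seen and with no test. In the 789 windows from 10% to 20%, CAA and CTA were at 25.6% ± 1.16 at 48 h SL and 34.1% ± 0.381 at 0 h, while the other CHH cytosines were at 6.54% ± 0.542 and 9.79% ± 0.0760 (SD, n = 3). In the 112 windows at 40% or above, CAA and CTA were at 35.4% ± 0.419 at 48 h SL and 60.05% ± 0.492 at 0 h, and the others at 24.2% ± 1.62 and 47.6% ± 0.699. The gap between the trinucleotide classes was thus wide in the moderately methylated windows and narrow, relative to the level, in the most methylated ones. CAA and CTA kept 75.0% of the 0 h level in the windows from 10% to 20% and 58.9% in those at 40% or above.

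**Figure D4:**
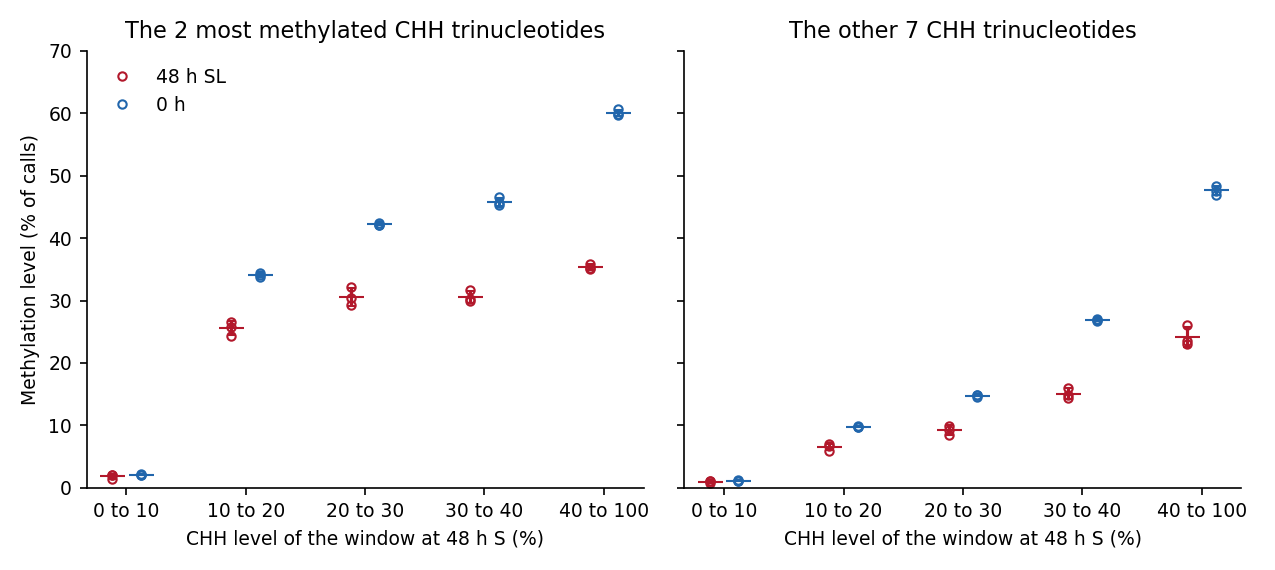
Level of CAA and CTA cytosines (left panel) and of the other CHH cytosines (right panel), in percent of calls, in knob windows grouped by their CHH level at 48 h S, for 48 h SL and 0 h; points are libraries, bars the mean and SD of 3. At 40% or above the points of 48 h SL and 0 h are farthest apart, 35.4% and 60.05% on average in the left panel.

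**Figure D5:**
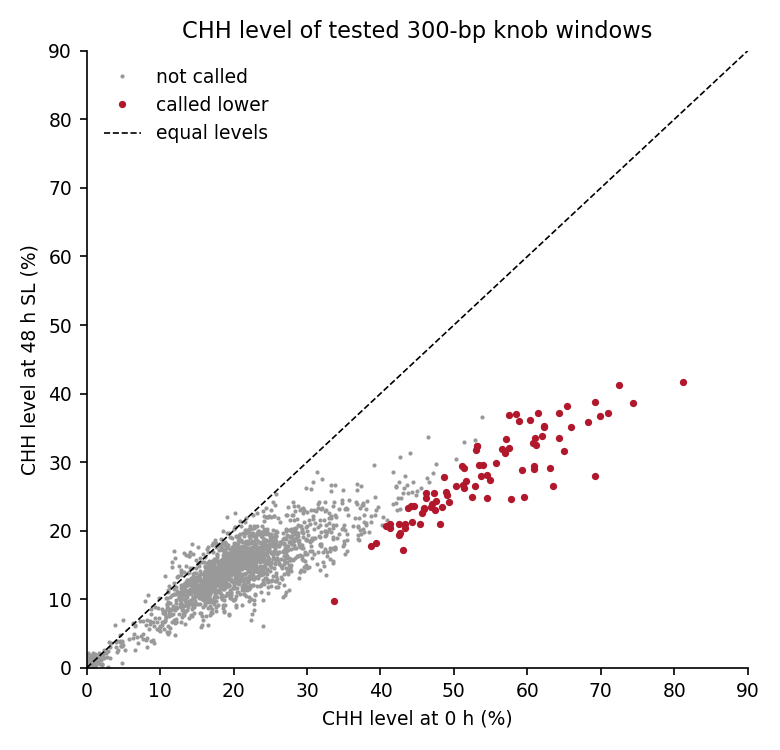
CHH level of each of the 2225 tested knob windows at 48 h SL (vertical axis) against its level at 0 h (horizontal axis), both in percent of the summed calls of 3 libraries, with the 86 called windows marked and a dashed line of equal levels. Nearly all windows above 20% lie under the line, and the distance from it grows with the level.

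In CG and CHG no knob window was called, of 1451 and 1530 tested (limma-moderated model), against 0% and 0.000335% of all windows tested in either direction. At an unadjusted p under 0.05, 334 CG windows were lower and 27 higher, which is 23.0% and 1.86% against 4.74% and 2.5% of all windows. In CHG 158 were lower and 15 higher, which is 10.3% and 0.980% against 2.85% and 2.08%. In simulated data the fit recovered 65.5% of falls of 25 points in CG windows, 58% in CHG and 99% in CHH. The simulated spread was the same in all contexts and not taken from the real windows, so these shares may not hold for them. The absence of calls does not show that CG and CHG levels stayed equal. With the prior dispersion taken only from windows with at least 15 calls of each kind, a choice made after seeing the data, there were 0 calls in CG and 8 in CHG, all lower, against 0.0107% and 0.0991% of all windows. All 3 seedling libraries lay below all 0 h libraries in 377 CG windows, which is 26.0% against 6.16% of all windows and 30.2% in gene-poor bins, and in 247 CHG windows, which is 16.1% against 3.77% and 14.6%. The CHG window with the smallest adjusted p, at 2259001 between AT4G04530 and AT4G04540, was at 35.6%, 30.6% and 33.8% at 48 h SL, against 65.3%, 71.1% and 70% at 0 h, without passing over all windows (limma-moderated model, adjusted p = 0.17). In the 43 called CHH windows that were also tested in CG and CHG, CHG was lower in 41 with a median of 10.9 points, while CG was lower in 25 with a median of 1.04 points. Over all tested knob windows the medians were 1.73 points lower in CHG and 2.77 points lower in CG.

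The 54 protein-coding genes of the knob were of distinct kinds. Under 1% of CHH calls were methylated in 27 of them, and their CG levels ranged from 0.126% to 57.9%, with 14 above 10%. They included EMB2369, a tRNA synthetase gene needed by the embryo, at 55.2% in CG and 0.342% in CHH over all libraries, so that it carried CG methylation almost alone. Above 10% in CHH were 16 genes, and their CG levels, where tested, ran from 42.0% to 94.2%. Of these, 13 had a lower CHH level at 48 h SL at an adjusted p under 0.05 (limma-moderated model over all genes, no minimum difference) and none a higher one. The share among genes above 10% in CHH genome-wide was not computed, so this count does not set the knob genes apart. At the minimum of 20 points no gene or pseudogene was called in any context, against 0.118% of all protein-coding genes and 1% of all pseudogenes lower in CHH, and 0.00372% of protein-coding genes higher in CG. Without a minimum, 18 protein-coding genes and 102 of 111 pseudogenes were lower in CHH, against 5.34% and 81.7% of those classes genome-wide, and 4 protein-coding genes and no pseudogene were higher, against 29.3% and 0.686%. The 4 higher genes were among those under 1%, where the background of the seedling libraries was also higher.

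The most CHH-methylated gene was AT4G03945, annotated as a pectin methylesterase inhibitor family protein, at 27.03%, 29.5% and 20.9% at 48 h SL, against 43.3%, 38.2% and 30.8% at 0 h (limma-moderated model, lower by 11.5 points, adjusted p = 0.0025). The uncharacterized AT4G04078 was next and showed no such change, at 25.3%, 23.6% and 31.0% at 48 h SL, against 30.3%, 30.4% and 19.7% at 0 h. OFP9, a transcription repressor of the OVATE family, was at 21.8%, 12.9% and 14.3% at 48 h SL, against 25.4%, 31.1% and 26.2% at 0 h (lower by 10.4 points, limma-moderated adjusted p = 0.011). The homeodomain-like gene AT4G04580 was at 15.97%, 13.1% and 16.01% at 48 h SL, against 25.3%, 26.2% and 25.7% at 0 h (lower by 10.5 points, limma-moderated adjusted p = 5.4e-07). AT4G03590, of the cystatin family and at the left edge, was at 16.1% ± 1.01 at 48 h SL and 22.2% ± 0.621 at 0 h (SD, n = 3). In 4 of these 5 genes the seedling libraries thus lay below all dry seed libraries.

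At the other end, AT4G03965 (a RING/U-box protein), AT4G04090 (a BTB/POZ protein), RLP46 (a receptor-like protein), AT4G03625 and AT4G04480 (F-box proteins) had CHH levels of 0.225% to 0.259% over all libraries, no more than the background. Their CG levels were 0.126% to 1.54%, so these genes carried almost no methylation while lying inside the knob. A cluster of cysteine-rich receptor-like kinase genes, which take part in stress and defence signalling, lay near the right end and was picked out after its values were seen. CRK40 was at 4.30% ± 0.620 in CHH at 48 h SL and 8.46% ± 0.734 at 0 h (SD, n = 3 each; lower by 4.01 points, limma-moderated adjusted p = 9.4e-07). CRK39 was at 1.60% ± 0.312 and 3.08% ± 0.396 (lower by 1.44 points, limma-moderated adjusted p = 0.0010). The other 3 of these 5 genes did not pass. CRK36 was at 4.76% ± 1.97 at 48 h SL and 7.08% ± 1.47 at 0 h (limma-moderated adjusted p = 0.052), CRK38 at 1.44% ± 0.365 and 2.15% ± 0.343 (limma-moderated adjusted p = 0.095) and CRK37 at 0.392% ± 0.177 and 0.332% ± 0.108 (limma-moderated adjusted p = 0.54).

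Among pseudogenes, 110 of 111 had a lower CHH level at 48 h SL, with a median difference of 5.09 points. Their median level was 15.3% at 48 h SL and 20.5% at 0 h. Most pseudogenes genome-wide were also lower in CHH, with 81.7% called lower and 0.686% higher without a minimum (limma-moderated model). In CG, 101 of 106 pseudogenes of the knob were lower, by a median of 4.41 points, with medians of 89.6% at 48 h SL and 94.4% at 0 h. With the minimum set at 10 points, 8 pseudogenes and 3 protein-coding genes were called lower in CHH, which is 7.21% and 5.56% against 10% and 0.996% genome-wide. The largest of these falls were in AT4G03975, at 14.1%, 12.96% and 5.24% at 48 h SL, against 34.4%, 18.6% and 30.5% at 0 h, and in AT4G04255, at 20.8%, 17.5% and 21.0%, against 37.1%, 32.2% and 33.6%. The long pseudogene AT4G04130, on the plus strand at chr4:1977183-1982785, was lower in all contexts, at 20.3% ± 0.932 in CHH at 48 h SL and 31.6% ± 0.332 at 0 h (SD, n = 3). Without a minimum, 65 of 106 pseudogenes and 5 of 53 protein-coding genes were lower in CG, against 49.5% and 0.912% genome-wide, and 10 of 108 pseudogenes were lower in CHG, against 12.2%. A single gene was called in CG at 10 points, against 0.026% of protein-coding genes lower and 0.0298% higher, AT4G04265, annotated as a transposase of the En/Spm family, which was lower by 10.998 points (limma-moderated model, adjusted p = 0.013).

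The lists of differentially methylated regions that the authors deposited for the time course held 200 CG, 235 CHG and 337 CHH regions overlapping the knob, of 14888, 10655 and 22441. These covered 10.97% of the knob in CG, 29.5% in CHG and 7.32% in CHH, against 4.36%, 6.51% and 3.23% of the 5 chromosomes. The median length in the knob was 316 bp in CG, 650 bp in CHG and 86 bp in CHH. These regions were called by the authors on all libraries, so their counts have no replicate error. Recomputed from the calls summed over each time point, the largest difference between time points was under 20 points in all 200 CG regions of the knob, in 232 CHG and in 130 CHH regions, so the lists include regions of small change. By its methods, the study left out regions with a largest difference under 20%, so its own counts are of a smaller set.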

How the data were processed

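The authors deposited, for each library, methylated and unmethylated call counts per cytosine, made from MethylC-seq reads aligned to TAIR10 and deduplicated. The submitters' processing notes name Trim Galore 0.4.2 and Bismark 0.16.3. Deposited lists of differentially methylated regions were used for their positions only, and their further columns, the authors' own comparisons, were not used. All deposited positions matched cytosines of the RefSeq reference (TAIR10.1), which gave the printed sequences and the genes. Trinucleotides were those deposited, and 42859664 of 42859750 equalled those of the reference.

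A level is the percent of calls that were methylated. The knob windows and all lists were chosen with earlier results of these data known. Levels of the 48 h SL libraries were set against the other 12 with exact two-sided permutation tests, and the 5 time points with a permutation F test (100000 resamples, seed 1), with Benjamini-Hochberg adjustment. Windows of 300 bp and gene bodies of the whole genome, with at least 3 cytosines and 20 calls in every library, were fitted with a quasi-binomial model whose dispersion was moderated with limma 3.58.1 (R 4.3.3, Python 3.11.15), at least 1. A call needed an adjusted p under 0.05 and 20 points. The fit was tested on simulated data. There 6.84% of unchanged CHH windows had an unadjusted p under 0.05 in this model, against 3.43% in CG and 3.19% in CHG. By the study's methods the seeds came from 1 batch of plants and the replicates are biological, so the p-values measure the spread between samples of that batch.

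Named were the 10 largest called falls, the 3 windows with the highest CHH level, in CG and CHG the 3 smallest adjusted p, and the 5 protein-coding genes with the highest and the 5 with the lowest CHH level. The window with the smallest change was shown as a contrast, and genes called at 10 points and the CRK genes were added after their values were seen. Alternatives were equal weight per window, at least 4 calls per cytosine, subtracted background, the core from 1700000 to 2200000, other windows, minima and gene-poor limits, limma on log ratios, a replicate block and leaving out each library.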

Additional observations from a re-analysis of the deposited data

How the results depend on the processing

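The fall of CHH methylation in the knob, its time course and the higher ratio of CAA and CTA to other CHH kept their direction and their calls under the alternatives run for them, while CG and CHG at 48 h SL passed or missed the test with the weighting. With every window counting equally, the difference of 48 h SL from the other libraries was -2.43 points in CG and -2.49 in CHG, the CG time course had an adjusted p of 7.5e-05 (permutation test), and 24 h SL minus 0 h was -1.28 points in CG and -2.12 in CHG. With only cytosines of at least 4 calls in every library, which are 6.90% of those in the knob, the first values were -1.78 and -3.59 points, the CG time course p was 0.0138 (permutation test), 24 h SL minus 0 h was -1.10, -2.38 and -2.90 points in CG, CHG and CHH, and 48 h SL minus 0 h was -8.94 points in CHH. With the background subtracted they were -2.17 and -2.42 points and 0.0485. Against gene-poor bins, equal windows gave log2 ratios shifted by 0.012 in CG, -0.0023 in CHG and -0.016 in CHH, and differences of 0.170 points in CHG and 0.177 in CHH; at least 4 calls gave -0.018 in CHG and -0.048 in CHH, with -0.549 points in CHG, a reversed sign, and -0.918 in CHH. In the core of the knob the CHH difference from gene-poor bins was -0.0533 points. The cause of these shifts was not tested.

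Leaving out 1 library at a time, the seedling difference ranged from -3.43 to -0.951 points in CG and from -3.57 to -1.31 in CHG, the time course p from 0.00021 to 0.130 in CG and from 0.00029 to 0.0754 in CHG (permutation tests), and the CHG difference from gene-poor bins from 0.266 to 0.519 points. Called CHH windows numbered 81 to 101 without any library of 0 h or 48 h SL, against 86 with all. Those 86 were 3.87% of the tested knob windows, against 1.96% of all windows. Called CHH windows numbered 889 of 2225 with no minimum difference, against 15.6% of all windows, and 396 at 10 points, against 6.58%. They numbered 277 with windows of 100 bp and 13 with windows of 1000 bp, which are different units. No share of all windows is given for these sizes or for the left-out libraries. Those counts alone do not set the knob apart. Genes called at 10 points were 1 in CG and 11 in CHH. The CG gene was protein-coding and lower, against 0.026% of protein-coding genes, and no pseudogene was called lower, against 0.526%. The CHH genes were 5.56% of protein-coding genes and 7.21% of pseudogenes of the knob, against 0.996% and 10% genome-wide. With the restricted prior dispersion 8 CHG windows were called, 0.523% of those tested in the knob, against 0.0991% of all windows. Deviations of same-numbered libraries correlated between -0.058 and 0.052 over windows, so no pairing by replicate number was seen there. A shift shared by whole libraries of the same number could not show in this check. The replicate block gave an adjusted p of 0.065 for the CHG time course (permutation test) and changed no other call of those it was run on. Depth limits single windows, with 2.00 calls per cytosine in 24 h SL replicate 1.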

Other observations

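The CHG trinucleotides did not move alike, a comparison chosen after the values had been seen. In the knob CCG was at 32.9% ± 2.55 at 48 h SL and 32.4% ± 0.614 at 0 h, while CAG and CTG together were at 47.5% ± 2.45 and 51.2% ± 0.391 (SD, n = 3). The log2 ratio of CCG to CAG and CTG was -0.53 ± 0.04 at 48 h SL and -0.65 ± 0.02 in the other 12 libraries, higher by 0.12 (exact permutation test, p = 0.0022, the smallest it can give), and by 0.10 to 0.13 with any library left out. In the gene-poor bins it was -0.55 ± 0.04 at 48 h SL and -0.71 ± 0.02 in the others. In the left flank the ratio went the other way, at 0.33 ± 0.05 at 48 h SL and 0.51 ± 0.04 in the others (exact permutation test, adjusted p = 0.0029 over 4 regions). In the right flank it was -0.34 ± 0.06 at 48 h SL and -0.30 ± 0.02 in the others and did not pass (exact permutation test, adjusted p = 0.090).

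OFP9 was at 7.36% in CHH in 24 h SL replicate 1, against 33.7% and 32.02% in the other libraries of that time point. That library was the shallowest of the series.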
